A study of Mus musculus with 4 samples.

Results

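Atrial cardiomyocytes (CMs), the muscle cells of the upper chambers of the heart, were described in single-cell suspensions of mouse hearts at E10.5 (embryonic day). They were chosen by their UMIs (unique molecular identifiers, each standing for one captured RNA molecule). A cell had to have at least 1500 genes detected, at most 10% of UMIs from mitochondrial genes, at least 20 UMIs of *Tnnt2* and 10 of *Ttn* per 10000 UMIs, and less than 2 of the endothelial genes *Pecam1*, *Cdh5* and *Ecscr* summed, which made it a CM. It was called atrial with at least 8 *Myl1* and under 10 *Myl2* UMIs per 10000, more *Myh6* than *Myh7* UMIs, and at most 1 UMI of *Shox2* plus *Bmp2* and of *Bmp4* plus *Mybpc1*. These rules found 1139 atrial CMs among 10951 CMs, 30415 cells past the quality filters and 50436 deposited barcodes.

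Hearts of control embryos, labelled Tie2flfl with no Cre, were compared with hearts of Nfatcre-Tie2flfl embryos (*Tie2-cko*). In the latter a Cre knocked into *Nfatc1*, a gene of endocardial cells (EdCs), deletes *Tek*, the gene of the receptor TIE2, in the endocardium, so atrial CMs are neighbours of the targeted cells. The background of the mice was a mix of 129 and C57/BL6, both sexes were used, and the control hearts carried the floxed alleles too. Each genotype had 2 libraries, numbered 5 and 7 for control and 6 and 8 for *Tie2-cko*, and the labels do not say whether a library was 1 heart or a pool (the methods give 2 hearts of 1 litter for each genotype), so the tests measure only the spread between these libraries. The libraries gave 326 and 314 atrial CMs in control and 103 and 396 in *Tie2-cko*. Their summed depth was 11168465 and 9189959 UMIs in control and 7561889 and 13141574 in *Tie2-cko*. The median atrial CM held 29702, 61213, 25552 and 30052.5 UMIs in libraries 5, 6, 7 and 8, so library 6 had the fewest and the deepest cells. Pairs of libraries shared 29 to 62 cell barcodes, of which none was atrial in both.

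By E10.5 the heart tube has looped and its chambers have begun to differ. Atrial and ventricular CMs share most of the contractile machinery but use different myosin chains, and atrial identity is held by the COUP-TF nuclear receptors NR2F1 and NR2F2, which keep ventricular genes off. Atrial muscle takes up calcium rapidly into its stores and secretes natriuretic peptides. CMs also make the TIE2 ligand ANGPT1, which EdCs read across the cardiac jelly. In GENCODE M21 on GRCm38 the protein-coding gene *Tek* lies at chr4:94739289-94874976 (plus strand) and *Angpt1* at chr15:42424723-42676977 (minus).

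Promoter windows are shown for 3 genes that recur in the values that follow, the gene of largest log2 ratio of atrial over ventricular level at a pseudocount of 0.05 (*Stard10*), the gene of atrial natriuretic peptide (*Nppa*) and a gene much lower in atrial than in ventricular CMs (*Pln*). Each window is the 250 bases before the annotated start on the plus strand, from RefSeq on GRCm38.p6. *Stard10* is at chr7:101316836-101317085, *Nppa* at chr4:148000472-148000721 and *Pln* at chr10:53337436-53337685. Capitals mark a match to a T-box motif (AGGTGT or ACACCT on the other strand) in *Nppa* and to a GATA motif (AGATAA or TTATCT) in *Pln*.
Stard10: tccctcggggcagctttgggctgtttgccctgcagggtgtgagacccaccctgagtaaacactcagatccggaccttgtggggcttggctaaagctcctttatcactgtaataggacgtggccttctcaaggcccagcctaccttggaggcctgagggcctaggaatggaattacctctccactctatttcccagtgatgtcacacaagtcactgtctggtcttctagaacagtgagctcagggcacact
Nppa: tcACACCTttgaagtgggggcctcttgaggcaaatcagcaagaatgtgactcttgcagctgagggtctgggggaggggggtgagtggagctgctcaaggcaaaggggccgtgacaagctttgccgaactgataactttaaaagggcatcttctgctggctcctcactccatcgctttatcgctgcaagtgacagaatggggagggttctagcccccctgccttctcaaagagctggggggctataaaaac
Pln: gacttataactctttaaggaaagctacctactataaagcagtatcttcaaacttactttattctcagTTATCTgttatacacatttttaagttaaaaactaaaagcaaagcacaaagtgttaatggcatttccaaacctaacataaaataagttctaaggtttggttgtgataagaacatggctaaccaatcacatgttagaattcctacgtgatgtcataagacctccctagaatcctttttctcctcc
The first base of the match lies at position -248 in *Nppa* and -183 in *Pln*, counted back from the start, and *Stard10* has no match to any of the 5 motifs searched on both strands. Among all 32851 windows of this length, 11.8% hold the T-box letters and 9.99% the GATA letters. The other motifs were a COUP-TF half-site (AGGTCA or TGACCT), in 14% of windows, the HEY E-box CACGTG, in 6.02%, and MEF2, in 2.92%. Of the 20 windows found for 15 of the 20 genes of largest atrial excess named below, 2 held the COUP-TF letters, 2 the T-box letters, 1 the GATA letters, 1 the E-box and 0 the MEF2 motif. Of the 14 windows for 10 of the 12 genes of largest ventricular excess, 4 held the GATA letters, in *Gja1*, *Itm2a*, *Mpped2* and *Pln*, and 1 each held the COUP-TF letters and the E-box. A match describes letters in a window and does not make a site of binding.

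The levels of the markers of the cells describe the label. *Myl1* and *Myh6* had entered the rule and the other markers were given with it, so they are no independent check. Levels are means over the cells of a library, in UMIs per 10000. Ventricular CMs (6490 cells) were CMs with at least 10 *Myl2* UMIs per 10000 and the same limits on *Shox2*, *Bmp2*, *Bmp4* and *Mybpc1*. Since *Myl1*, *Myl2*, *Myh6* and *Myh7* divided the classes and every other gene was read in the same cells, differences between classes are a description and were not tested. *Myh6*, the fast atrial myosin heavy chain, had a level of 32.7 and 27.2 in control and 33.9 and 22.7 in *Tie2-cko*, against 9.38 to 10.6 in ventricular CMs. *Stard10*, a lipid transfer protein gene that the rule did not use, had a level of 3.61 and 3.25 in control and 3.45 and 3.11 in *Tie2-cko*, while ventricular CMs ranged from 0.177 to 0.239. *Tnni2*, the fast skeletal troponin I, had a level of 6.32 and 3.50 in control and 5.55 and 4.41 in *Tie2-cko*, and *Casq1*, the calcium store protein of fast skeletal muscle, 4.20 and 4.04 in control and 4.10 and 3.85 in *Tie2-cko*. *Mybphl*, a myosin-binding protein H relative found in atrial muscle, had a level of 1.31 and 1.10 in control and 1.35 and 1.11 in *Tie2-cko*. The 4 markers outside the rule (*Stard10*, *Tnni2*, *Casq1* and *Mybphl*) were higher in atrial than in ventricular CMs in 4 of 4 libraries.

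CMs of the other gates stood between or beside these classes. The 942 CMs with at least 2 UMIs of *Shox2* plus *Bmp2*, genes of the sinus venosus and atrioventricular canal, had a mean *Stard10* level of 1.42, and the 421 CMs with at least 2 UMIs of *Bmp4* plus *Mybpc1*, genes of the outflow tract, 0.828. *Myl7*, the atrial regulatory myosin light chain, had a level of 226 to 252 in atrial CMs over the 4 libraries, 249 to 272 in the sinus or canal gate, 239 to 283 in the outflow gate and 110.0 to 124 in ventricular CMs. *Myl7* thus separated ventricular CMs from the rest and not atrial CMs from the inflow and outflow ends. *Nppa*, the gene of atrial natriuretic peptide, ran the other way, with 50.2 to 63.1 in atrial and 31.5 to 48.6 in ventricular CMs against means of 8.14 in the sinus or canal gate and 3.87 in the outflow gate. *Sln*, the atrial inhibitor of the calcium pump, was still low at 0.0796 to 0.265 in atrial CMs, and its mean in the sinus or canal gate was 0.513.

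**Figure D1:**
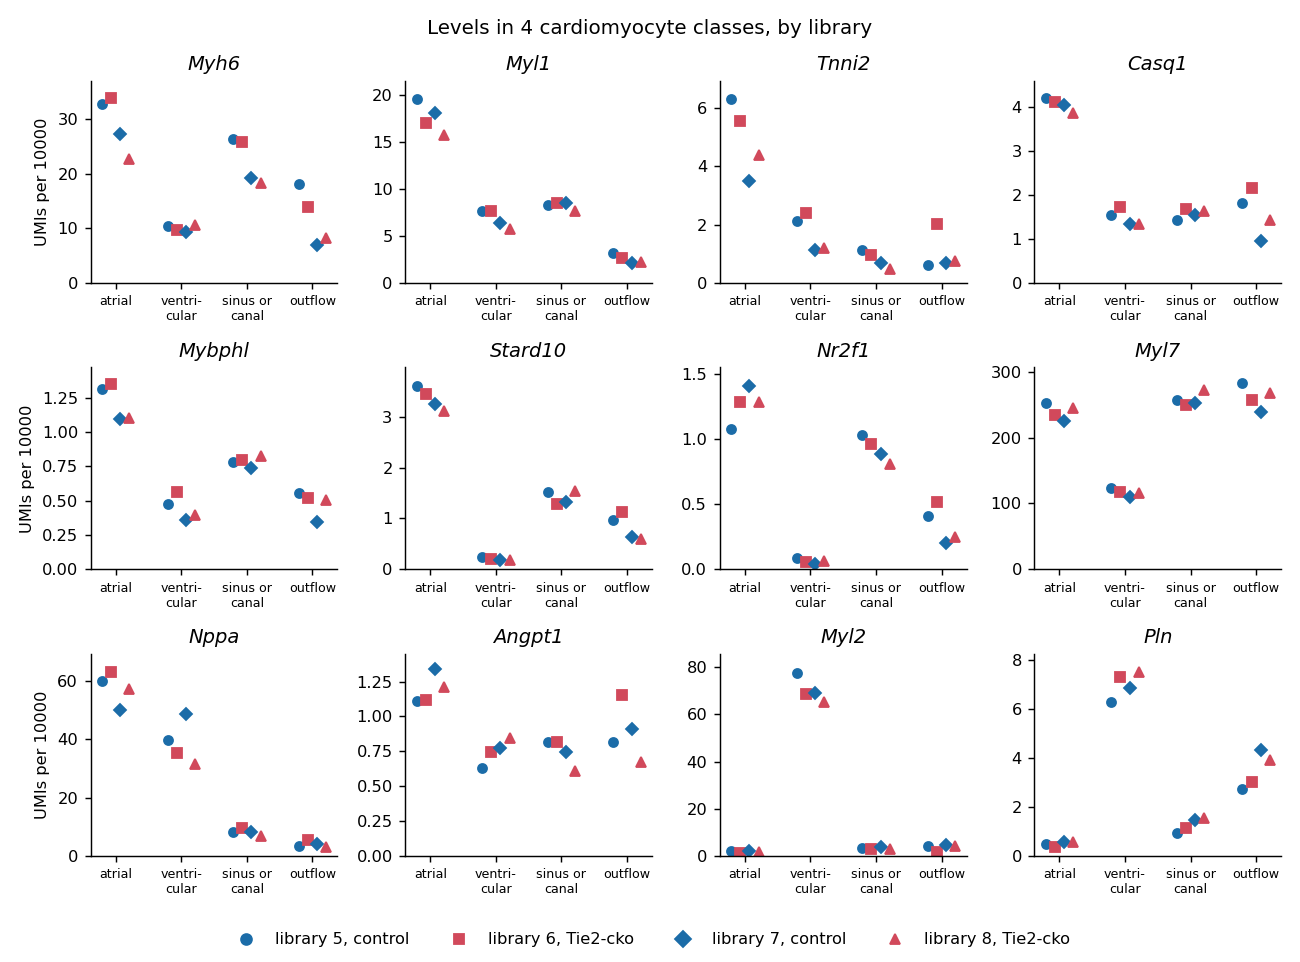
Mean level in UMIs per 10000 (vertical axes, from 0) of 12 genes in 4 gates of CMs (horizontal axes), with 1 point per library, coloured by genotype. *Stard10* and *Nr2f1* lie highest in atrial CMs, *Myl7* is as high in the sinus or canal and outflow gates as in atrial CMs, and *Myl2* is near 0 outside ventricular CMs.

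The thresholds cut through a continuous range. The 120 atrial CMs just inside the *Myl1* limit, at 8 to 10 per 10000, had mean levels of 3.03 for *Stard10*, 3.48 for *Tnni2* and 1.19 for *Nr2f1*. The 60 cells just outside it, at 6 to 8, had 2.90, 2.73 and 1.19. Within the *Myl2* limit, the 34 cells at 5 to 10 had a mean *Stard10* level of 2.34 and *Nr2f1* level of 0.707, and the 14 cells just over it, at 10 to 15, had 1.56 and 1.15. Cells on either side of the *Myl1* limit thus had close levels of *Stard10* and *Nr2f1*, while *Tnni2* was lower just outside it.

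Among 2135 genes with a level of at least 0.5 in atrial CMs of all 4 libraries, 28 were at least 2-fold higher than in ventricular CMs in every library, with the genes of the rule left out. *Stard10* led, with a mean log2 ratio of atrial over ventricular level (pseudocount 0.05) of 3.78, followed by *Cav1* (caveolin 1, a membrane coat protein) at 3.64, *Vsnl1* (a neuronal calcium sensor) at 3.59 and *Nr2f1* at 3.58. Some of the genes above the ventricular level were as high in other gates. *Vsnl1* had a mean of 2.71 in the sinus or canal gate and 0.793 in the outflow gate, against 0.725 to 0.922 in atrial CMs. *Nr2f2*, *Itga6*, *Gucy1a1* and *Bex4* had means of 0.678, 2.06, 1.12 and 5.31 in the sinus or canal gate, within their atrial ranges. In the outflow gate *Arl4a* had a mean of 1.26, above its atrial range of 0.825 to 1.07. *Lmod1* had 0.518 there, within its atrial range of 0.516 to 0.755. As ratios of mean levels with no pseudocount the order differed, with 37.5-fold for *Vsnl1*, 35.5-fold for *Cav1*, 20.9-fold for *Nr2f1* and 16.8-fold for *Stard10*. The COUP-TF genes were among the clearest. *Nr2f1* had an atrial level of 1.08 and 1.40 in control and 1.28 and 1.28 in *Tie2-cko*, and a ventricular level of 0.0422 to 0.0830. *Nr2f2* had an atrial level of 0.566 to 0.785 and a mean ventricular level of 0.0493. *Hey1*, a Notch target that marks atrial muscle, had an atrial level of 0.426 to 0.451 and a ventricular mean of 0.0376. *Kcna5*, the potassium channel of the atrial ultrarapid current, had an atrial level of 0.268 to 0.395 and a ventricular mean of 0.0118. For these 4 genes the lowest atrial library lay above the highest ventricular one. The other genes of largest atrial excess were *Ap3b2*, *Gm15543*, *Tnnt3*, *Pum3*, *Tmem163*, *Ccn4*, *Lmod1*, *Gucy1a1*, *Itga6*, *Arl4a*, *Tigd2*, *Sfrp1*, *Bex4*, *Casq1* and *Mybphl*. *Tnnt3*, the fast skeletal troponin T, had a log2 ratio of 2.39. *Itga6*, the laminin receptor chain, had an atrial level of 1.98 to 2.17 against a ventricular mean of 0.702. *Sfrp1*, a secreted Wnt inhibitor, had a log2 ratio of 1.47 and *Gucy1a1*, a subunit of the nitric oxide receptor, 1.54.

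In the other direction, 16 of 2205 genes at that level in ventricular CMs were at least 2-fold lower in atrial CMs in every library. *Pln*, phospholamban, which slows the calcium pump of the sarcoplasmic reticulum, had an atrial level of 0.465 and 0.547 in control and 0.356 and 0.539 in *Tie2-cko* and a ventricular mean of 6.99. *Atp2a2*, the pump itself, had an atrial level of 11.99 and 11.1 in control and 11.4 and 9.09 in *Tie2-cko* and a ventricular mean of 4.57. The pump was thus higher and its brake lower in atrial CMs. *Hand1*, a transcription factor of the left ventricle, had a log2 ratio of -3.93, with an atrial level of at most 0.0180. *Cited1*, a transcription cofactor of the ventricular wall, had a log2 ratio of -2.42, *Gja1* (connexin 43, the ventricular gap junction protein) -1.62 and *Vcan* (versican, the main proteoglycan of the cardiac jelly) -1.97. *Lbh*, *Mpped2*, *Tln2*, *Itm2a*, *Capn6*, *Slc25a13* and *Hmga2* completed the 12 genes of largest ventricular excess.

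**Figure D2:**
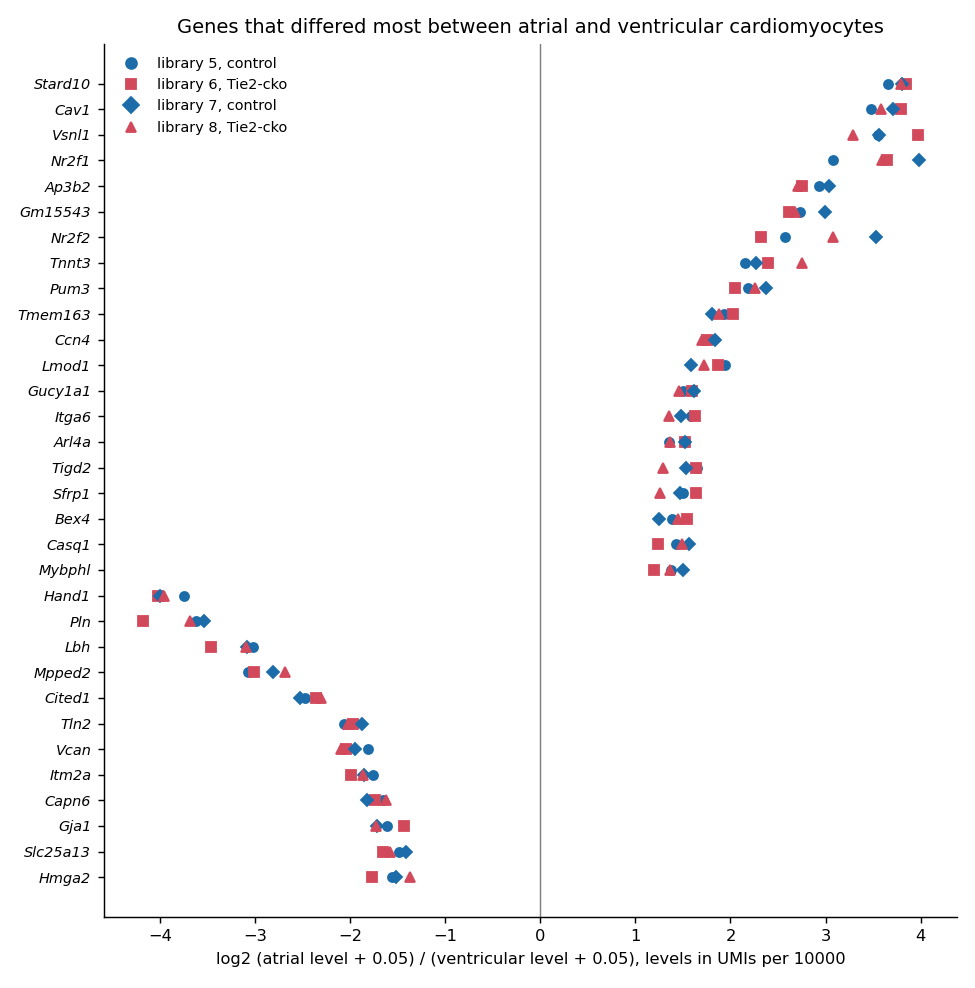
Log2 ratio of atrial over ventricular level in each of the 4 libraries (horizontal axis; points coloured by genotype) for the 20 genes of largest atrial and the 12 of largest ventricular excess (vertical axis). Each gene's 4 points lie on one side of 0, from 3.78 on average for *Stard10* to -3.93 for *Hand1*, and those of *Nr2f2* spread from 2.33 to 3.53.

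By gene group, 17 of 18 genes of atrial identity were higher in atrial than in ventricular CMs in 4 of 4 libraries and 1, *Bmp10*, was lower. Among all 17170 genes seen in every library of either class, 14.8% were higher and 33.4% lower in 4 of 4. With the genes of the rule left out, 1 of 12 ventricular identity genes was higher and 10 were lower, and 7 of 13 fast skeletal isoforms were higher, among them *Tnni2*, *Tnnt3* and *Casq1*, and 0 lower. The rule set a minimum on *Myl1*, itself a fast skeletal isoform, so the count for these isoforms is not independent of the rule. Of 35 cardiac transcription factors, 9 were higher and 17 lower, and of 26 genes of calcium handling and conduction, 13 were higher and 7 lower. Genes of the cell cycle stood lower, with 35 of 40 S phase genes and 27 of 51 G2 and mitosis genes below the ventricular level in 4 of 4 libraries and 0 and 2 above it. Their summed level followed the count. S phase genes summed to 15.5, 17.6, 17.0 and 17.0 UMIs per 10000 in atrial CMs of libraries 5, 6, 7 and 8 and to a mean of 21.2 in ventricular CMs. The kinase inhibitor *Cdkn1c*, which restrains the cycle, was lower too, at 7.06 to 8.41 against a ventricular mean of 20.2. Matrix genes were mostly low, with 14 of 25 lower and 2 higher, *Timp3* (an inhibitor of matrix proteases) being 1 of the higher ones at 0.281 to 0.454 against a ventricular mean of 0.159. Of 17 genes of retinoic acid synthesis and reception, 5 were higher and 6 lower, and of 28 receptors for endocardial signals 6 were higher and 9 lower, *Itga6* and *Ednra* (the endothelin receptor) among the former.

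Signals that CMs send to EdCs were not uniformly stronger in the atrium. Of 20 genes listed, 8 were higher and 7 lower than in ventricular CMs. *Angpt1*, the TIE2 ligand, had a level of 1.11 and 1.34 in control and 1.12 and 1.21 in *Tie2-cko*. In ventricular CMs it was 0.627 to 0.843, and in the sinus or canal and outflow gates its means were 0.745 and 0.887. Atrial CMs had the highest *Angpt1* level of the 4 gates in libraries 5, 7 and 8, while in library 6 the outflow gate was slightly above it, at 1.15. The ventricular, sinus or canal and outflow ranges overlapped. *Wnt2*, a Wnt ligand of the inflow, had an atrial mean of 0.304 and a ventricular mean of 0.0806, whereas *Cxcl12*, a chemokine, had 0.0439 and 0.481 and *Vegfa* 0.169 and 0.255. Across 20 points (5 gates of CMs in 4 libraries), the genes whose log2 levels went most closely with *Angpt1* were *Hsp90b1* (Pearson r = 0.874), *Pdia3* (0.872), *Kmt5a* (0.858), *Hspa5* (0.855), *Sec13* (0.851) and *Anp32a* (0.849). The gate not described above held the 1959 CMs left over by the others. The means of *Angpt1* (0.397 there) and of each of these genes were lowest in that gate. The points of a library share its depth, and the r values are given without a test. *Hsp90b1*, *Pdia3* and *Hspa5* encode chaperones of the endoplasmic reticulum.

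Atrial CMs also varied among themselves. Overdispersion, the variance between cells beyond counting error divided by the squared mean, had a median of 0.0745 over 3170 genes with a level of at least 0.3 in every library. Haemoglobin genes came first (*Hba-x*, *Hbb-bh1*, *Hba-a1*, *Hbb-y* and *Hba-a2*), with 10.8 to 116 over the libraries for *Hba-x*, which is made by red cells and not by muscle. *Tnnt3* followed, with 2.94 to 4.18, and *Tnni2* had 1.88 to 2.90, so the fast skeletal troponins were unevenly spread over atrial CMs. *Nppb*, the gene of B-type natriuretic peptide, had 2.06 to 4.19, *Id2*, an inhibitor of helix-loop-helix factors, 1.73 to 2.56, and the immediate early gene *Fos* 1.74 to 6.04. The rest were the histone genes *Hist1h1b*, *Hist1h2ae*, *Hist1h3c* and *Hist1h2ap* and *Prc1*, a gene of cell division, which belong to cells in cycle.

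The genotype comparison asked whether atrial CMs differ when the endocardium next to them lacks TIE2. Atrial CMs made up 10.7% of CMs in library 5 (95% Wilson interval 9.68 to 11.9%), 10.3% in library 7 (9.28 to 11.4%), 8.58% in library 6 (7.12 to 10.3%) and 10.8% in library 8 (9.83 to 11.8%). The intervals cover counting error only. The control mean was 10.52% ± 0.299 (SD, n = 2) and the *Tie2-cko* mean 9.69% ± 1.57 (SD, n = 2), a difference of -0.837 percentage points (exact two-sided permutation test, p = 1). With 2 libraries against 2 this exact permutation test cannot go below p = 0.3333, so it could call no change in the share of atrial CMs, and no other test of the share was run. The difference turned to 0.273 points without library 6. At a *Myl1* limit of 12 it was -1.71 points, with 9.12 and 8.51% in control and 6.41 and 7.80% in *Tie2-cko*, so there the genotypes did not overlap. They overlapped at a *Myl1* limit of 5 and at a mitochondrial limit of 5%, as in the main gate. The limits on *Shox2* plus *Bmp2* and *Bmp4* plus *Mybpc1* are UMIs not scaled to depth, and library 6 had the deepest cells. Their part in the share was not tested.

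*Tek* itself was read as a check of the labels. In the 3400 cells of the endothelial gate its level was 0.749, 0.310, 1.18 and 0.222 in libraries 5, 6, 7 and 8, so that both control values lay above both *Tie2-cko* values, while *Tie1*, the related receptor that was not deleted, had 0.771, 0.821, 0.609 and 0.663. Whether the counted reads fall in the deleted part of *Tek* is not given in the sources used here. In atrial CMs *Tek* was close to 0, at 0.0149 and 0.0105 in control and 0.00156 and 0.00214 in *Tie2-cko*. The sexes were not balanced. *Xist*, the RNA of the inactive X, had an atrial level of 0.312 in control library 5 and 0 in the other 3 libraries. In library 5, 52 of 326 atrial CMs held *Xist* UMIs and no UMI of Y-linked genes, 201 the reverse, 15 both and 58 neither, so this library held cells of both sexes.

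No gene passed an adjusted p of 0.05 between genotypes in atrial CMs (edgeR quasi-likelihood test on UMI counts summed per library, Benjamini-Hochberg over 11695 genes, 0% called). At an unadjusted edgeR p under 0.05 there were 93 genes, fewer than the share of 0.05 expected if none differed. DESeq2 called 1, which was *Xist*. With no filter on low counts edgeR called 11, among them *Xist*, *Fosb*, *Rspo3*, *Pvalb*, *Gm21887* and *Hemgn*. Leaving out a library leaves its genotype with a single library, which is then assumed to vary like the other genotype. Leaving out library 6 gave 20 calls, haemoglobin genes and *Xist* among them, and leaving out library 8 gave 23, *Fosb* and *Rspo3* among them. The control and *Tie2-cko* libraries did not overlap for 23.6% of all genes tested, in either direction, against which every count of that kind below is to be read. The 10 genes of smallest p included *Pvalb*, *Hemgn*, *Tek*, *Sel1l*, *Rspo3*, *Gm21887*, *Proca1*, *Rbm11* and *BC048679*, each with an adjusted p of 1.00. *Pvalb*, parvalbumin, a calcium buffer of fast muscle, had a level of 0.116 and 0.157 in control and 0.0365 and 0.0619 in *Tie2-cko*, a log2 fold change of -1.30 (SE 0.21). *Rspo3*, a secreted Wnt amplifier, had a level of 0.0964 and 0.170 in control and 0.0106 and 0.0526 in *Tie2-cko*, a log2 fold change of -1.64 (SE 0.47), which was -1.09 without library 6 and -3.04 without library 8. For each of these genes the higher *Tie2-cko* value lay under the lower control value. *Hemgn* is a gene of red cells.

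Genes high in atrial CMs had small fold changes relative to their SEs. *Stard10* had a log2 fold change of -0.08 (SE 0.15), *Myl7* -0.04 (SE 0.15), *Nr2f1* -0.08 (SE 0.16) and *Angpt1* -0.07 (SE 0.16), and the control and *Tie2-cko* levels of each overlapped. *Nppa* had 0.11 (SE 0.17), with overlapping levels, and *Sln*, of low level, -0.58 (SE 0.32), the lowest of the atrial identity genes. A level weights each cell alike and the fit weights cells by their UMIs, so the signs can differ, as for *Nr2f1*. *Nppb*, at 1.13 and 1.28 in control and 1.32 and 1.50 in *Tie2-cko*, was higher in both *Tie2-cko* libraries, with a log2 fold change of 0.22 (SE 0.15), which was 0.096 without library 8, 0.33 without library 6 and 0.0057 at a mitochondrial limit of 5%. These SEs do not give the size of change that could have gone unseen. *Pvalb*, with a log2 fold change of -1.30, was not called either. The median log2 fold change over the 18 atrial identity genes was 0.03, with 3 above both controls and 1 below. With the genes of the rule left out, it was -0.08 for 3 atrial sarcomere genes, -0.09 for 22 sarcomere genes, of which 19 were negative and 5 lay below both controls, and -0.24 for 9 fast skeletal isoforms, of which 8 were negative and 1 lay below both controls. Over all genes tested it was 0.00. The median was 0.07 for 8 ventricular identity genes outside the rule, for 17 signals to the endocardium 0.04, for 23 receptors -0.07, for 21 matrix genes -0.02 and for 14 immediate early genes -0.27. It was -0.22 for 10 genes of retinoic acid synthesis and reception, -0.03 for 28 cardiac transcription factors and 0.04 for 24 genes of calcium handling and conduction. In all of these lists 0 genes passed the test, as in the whole table.

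**Figure D3:**
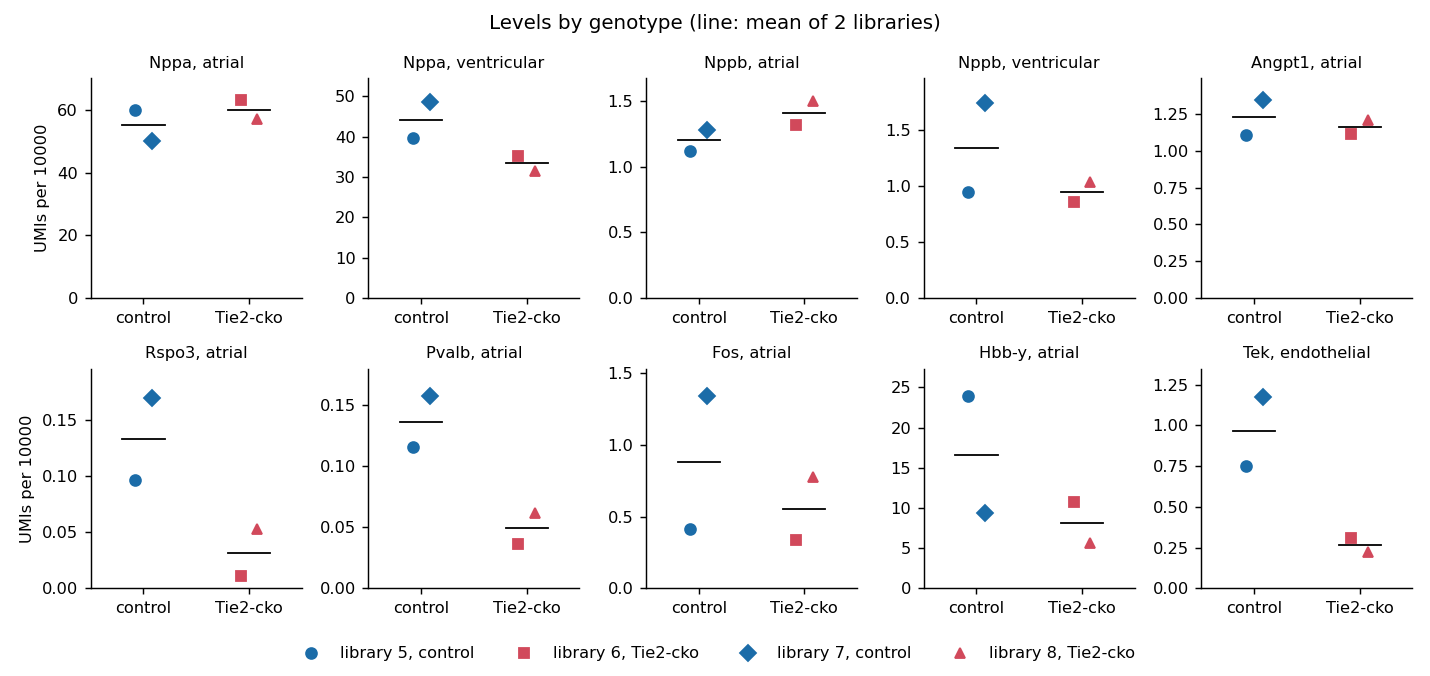
Level in UMIs per 10000 (vertical axes, from 0) in the cells each panel names, with 1 point per library by genotype (horizontal axes) and a line at the mean of the 2 libraries. Control and *Tie2-cko* points overlap for *Nppa*, *Angpt1*, *Fos* and *Hbb-y* in atrial CMs, *Rspo3* and *Pvalb* lie lower in both *Tie2-cko* libraries (not called in the fit of all 4 libraries with the filter on low counts and no block), and *Tek* lies lower in endothelial cells.

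Cell cycle genes were mostly on the positive side, and no gene of them passed the test. The median log2 fold change was 0.09 over 40 S phase genes, 32 of them positive, and 0.10 over 51 G2 and mitosis genes, 41 positive, of which 15 lay above both controls and 0 below. The summed level of the G2 and mitosis genes was 45.9, 53.4, 56.2 and 57.2 in libraries 5, 6, 7 and 8, so the genotypes overlapped, and library 5 stood lowest. The difference in means turned to -0.876 without library 5. The exact permutation test gave an adjusted p of 0.952 or 1 for these sums and those of all 8 lists of other cell types. Its unadjusted p cannot go below 0.3333 here, so it could call no difference in any of them.

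RNA of other cell types was measured alongside. Red cell genes summed to 53.4 and 20.9 UMIs per 10000 in control and 26.6 and 13.1 in *Tie2-cko* atrial CMs, with *Hbb-y* the most abundant, and none of the 9 genes was at 0 in all libraries. Their median log2 fold change was -0.57, all 9 negative. Endothelial genes (of which the rule capped *Pecam1*, *Cdh5* and *Ecscr*) summed to 0.521, 0.415, 0.435 and 0.409 in libraries 5, 6, 7 and 8, with *Egfl7* first. Epicardial genes summed to 0.546, 0.640, 0.309 and 0.464 (*Krt19* first) and mesenchymal genes to 0.332, 0.211, 0.231 and 0.335 (*Twist1* first). Neural genes summed to 0.265, 0.268, 0.258 and 0.229 (*Nefl* first), hepatic genes to 0.230, 0.206, 0.0334 and 0.0626 (*Afp* first), epithelial genes to 0.0263, 0.0225, 0.0560 and 0.0301 (*Epcam* first, 1 gene at 0) and macrophage and platelet genes to 0.0333, 0.0143, 0.0288 and 0.0133 (*Pf4* first, 2 of 8 genes at 0). Among these 8 lists the red cell list alone summed to more than 1. Its part in the genotype comparison was not tested.

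The labels do not say which control and *Tie2-cko* libraries came from the same litter, although the methods pool such libraries in one sequencing lane. The methods also take the hearts of each genotype from a single litter, so whether the libraries pair by litter is not settled. When libraries 5 and 6 were set as one block and 7 and 8 as the other, 34 genes were called in atrial CMs, 7 higher and 27 lower in *Tie2-cko*. They held *Fosb* (log2 fold change -1.41), *Atf3* (-0.94), *Fos* (-0.59) and *Jun* (-0.51), which are early response genes, red cell genes, *Pvalb*, *Rspo3*, *Myl2* (-0.63, a gene the atrial gate capped) and, higher, *Tbx18* (1.05), a transcription factor of the sinus horns. Without the block the fold change of *Fosb* was -1.31, and it was -0.17 without library 7 and -2.80 without library 8. The levels show what the block takes out. *Fos* was 0.415 and 0.336 in libraries 5 and 6 and 1.34 and 0.773 in libraries 7 and 8, and *Bc1*, a neuronal non-coding RNA, was 0.125, 0.182, 0.900 and 0.841 in libraries 5, 6, 7 and 8. Since this grouping of libraries is not in the labels, these calls are given as an alternative.

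Whether the genotype effect differed between chambers was tested as an interaction, with both sums of a library sharing that library. Of 14168 genes 706 had an unadjusted edgeR p under 0.05, about the share of 0.05 expected if none differed, and DESeq2 called 1, *Hba-a2*. The edgeR test called 8 (0.0565%), all with a more positive effect in atrial than in ventricular CMs. They were the haemoglobin genes *Hbb-bh1* (difference in log2 fold change 1.11, SE 0.11), *Hba-x*, *Hbb-y*, *Hba-a2*, *Hba-a1* and *Hbb-bt*, with *Bc1* (0.60, SE 0.09) and the histone gene *Hist1h2ae* (0.42, SE 0.07). *Hbb-y* had a level of 23.9, 10.8, 9.36 and 5.63 in atrial and 32.2, 9.89, 12.3 and 3.98 in ventricular CMs of libraries 5, 6, 7 and 8. Library 5 was highest and library 8 lowest in both chambers, and library 6 exceeded library 7 in atrial CMs alone. Without the cells of both chambers in which markers of other types, haemoglobin included, exceeded 1% of UMIs, 0 genes were called, and the difference for *Hbb-y* was -0.14. Such atrial CMs numbered 3, 1, 2 and 2 in libraries 5, 6, 7 and 8. Without these atrial CMs alone 0 genes were called, and the difference was 0.045 for *Hbb-bh1* and 0.025 for *Hbb-y*. Leaving out 1 library gave more calls, 69 without library 5, 39 without 6, 27 without 7 and 56 without 8. Without the 10% of atrial CMs with most UMIs, ventricular CMs being kept whole, 8 genes were called, of which 3 were among the 8 above (*Hbb-bt*, *Bc1* and *Hist1h2ae*). The other haemoglobin genes lost their calls there, with differences from 0.70 for *Hba-a2* to 0.98 for *Hba-x*. In the fit of all cells and libraries with the filter on low counts, no gene of the CM lists was called. *Nppa*, at 39.7, 35.2, 48.6 and 31.5 in ventricular CMs of libraries 5, 6, 7 and 8 and lower there in both *Tie2-cko* libraries, had a difference of 0.50 (SE 0.13, adjusted p = 0.623 by edgeR) and *Nppb* 0.70 (SE 0.15, adjusted p = 0.183 by edgeR). The difference was 0.17 for *Nppa* and 0.32 for *Nppb* without library 7 and 0.84 and 1.08 without library 5. Both genes had an adjusted p under 0.05 in edgeR without library 5, 6 or 8 (where 1 genotype rests on a single library), with no filter on low counts, and without the 10% of atrial CMs with most UMIs, and *Nppb* also at a *Myl1* limit of 12. *Tagln*, not among the 8, was called with no filter on low counts (0.51) and without the 10% of atrial CMs with most UMIs (0.48). Its difference ranged from 0.25 to 0.78 when 1 library was left out. *Angpt1* had a difference of -0.25 (SE 0.08), with an adjusted p over the threshold.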

How the data were processed

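Single-cell RNA was measured in 4 libraries (E10.5 hearts, 2 per genotype). The authors deposited a gene by barcode matrix of UMI counts for each library, 32285 genes, not normalized, with Cell Ranger 6.1.2 per the file headers and mm10 in the submitters' processing notes; the methods name another Cell Ranger version. From these counts, cells were gated in Python 3.11.15 (pandas 2.3.3, scipy 1.17.1, numpy 2.4.6) and plotted with matplotlib 3.10.9. Cell types were rebuilt by these gates, and no doublet caller was run. A level is the mean over cells of UMIs per 10000. For tests, counts were summed over the atrial CMs of each library and fitted with edgeR 4.0.16 in R 4.3.3 (TMM, filterByExpr, quasi-likelihood, Benjamini-Hochberg at 0.05), with DESeq2 1.42.0 as an alternative. The SE of a log2 fold change is its size over the root of the F statistic. Lists and single values were compared by exact permutation. The fits were tested on simulated data, for which no values are given here.

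Members, lists and tests were chosen with earlier results of these data known. Genes were named by rule: the markers and gate genes, list members of highest level or largest chamber difference, genes of largest chamber ratio (20 atrial, 12 ventricular), 15 of largest overdispersion, 6 most like *Angpt1*, 10 of smallest p between genotypes, *Tek* and sex-linked genes. Genes of added alternatives were named after their values were seen. Alternatives were DESeq2, its size factors, library sizes alone, no filter, other *Myl1* and mitochondrial limits (*Myl1* 5 or 12, mitochondrial 5%), leaving out the 10% of atrial CMs with most UMIs, cells over 1% markers of other types or with *Xist*, each library, and a block of libraries. Another comparison set at the outset is not reported here.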

Additional observations from a re-analysis of the deposited data

Results flagged for a closer look

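In the test of whether the genotype effect differed between atrial and ventricular CMs, 8 genes had an interaction past the threshold by edgeR. As differences in log2 fold change, atrial minus ventricular, they were 1.11 for *Hbb-bh1*, 1.19 for *Hba-x*, 1.08 for *Hbb-y*, 0.89 for *Hba-a2*, 1.05 for *Hba-a1*, 1.86 for *Hbb-bt*, 0.60 for *Bc1* and 0.42 for *Hist1h2ae*. Red cell genes summed to 53.4, 26.6, 20.9 and 13.1 UMIs per 10000 in atrial CMs of libraries 5, 6, 7 and 8 and to 72.2, 24.0, 27.6 and 9.03 in ventricular CMs, so the ventricular sum was above the atrial one in both controls and below it in both *Tie2-cko* libraries. At a *Myl1* limit of 12 the differences were 1.81 for *Hbb-bh1*, 2.06 for *Hba-x*, 1.82 for *Hbb-y*, 1.55 for *Hba-a2*, 1.90 for *Hba-a1* and 2.88 for *Hbb-bt*, and *Hbb-bt* had 1.19 without library 5. Single calls were lost for *Hist1h2ae* at that *Myl1* limit (0.38) and at 5% mitochondrial UMIs (0.27), for *Bc1* at a *Myl1* limit of 5 (0.44) and without library 7 (0.59) or 8 (0.54), and for *Hbb-bt* with library sizes alone (1.86) and at 5% mitochondrial UMIs (2.14). Without the 10% of atrial CMs with most UMIs the 5 haemoglobin genes other than *Hbb-bt* lost their calls. Their differences there were 0.86 for *Hbb-bh1*, 0.98 for *Hba-x*, 0.81 for *Hbb-y*, 0.70 for *Hba-a2* and 0.93 for *Hba-a1*. Without the cells of both chambers over 1% markers of other types, the differences of the 6 haemoglobin genes lay below 0, and *Bc1* had 0.59 and *Hist1h2ae* 0.38, none past the threshold.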

How the results depend on the processing

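The number of genes called between genotypes, 0, was 1 with DESeq2, 11 with no filter on low counts and 34 with the block of libraries 5 and 6 against 7 and 8. It ranged from 0 to 23 when 1 library was left out (20 without library 6, 23 without library 8, 1 without library 7) and was 0 under the other 8 alternatives. The interaction, 8 calls, gave 1 with DESeq2, 34 with no filter, 0 without atrial cells over 1% markers of other types, 0 without such cells of both chambers (added later) and 27 to 69 without 1 library (69 without library 5, 39 without 6, 27 without 7, 56 without 8). The share of atrial CMs, a difference of -0.837 percentage points, ranged from -1.95 to 0.273 without 1 library, turned without library 6, and was -1.71 at a *Myl1* limit of 12. Summed levels turned when 1 library was left out for G2 and mitosis (-0.876 to 9.45), mesenchymal (-0.0701 to 0.0534), neural (-0.0323 to 0.00674), epithelial (-0.0297 to 4.2e-05) and hepatic genes (-0.0959 to 0.101). Genotype fold changes turned for *Nppa* (-0.0619 without library 7, range to 0.322), *Angpt1* (0.0760 without 6 and 0.0608 without 7, range from -0.219), *Myl7* (0.0961 without 5, range from -0.151), *Stard10* (0.0478 without 5 and 0.0257 without 8, range from -0.191) and *Fos* (0.433 without 7, range from -1.40). The interaction turned for *Hba-a1* (-0.0500) without atrial cells over 1% markers of other types, and without such cells of both chambers for *Hbb-bh1* (-0.15), *Hba-x* (-0.12), *Hbb-y* (-0.14), *Hba-a2* (-0.14), *Hba-a1* (-0.10) and *Hbb-bt* (-0.21). The causes were not tested. Leaving out cells with *Xist* gave 0 calls between genotypes and 8 in the interaction. The replicate numbers of the genotypes (5 and 7, 6 and 8) share none, so the labels pair no libraries, and the block of 5 and 6 against 7 and 8 is an assumed pairing. Precision is limited by the 2 libraries per genotype and by the 103 cells of library 6.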
